A study of Rattus norvegicus with 18 samples.

Results

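H3K4me3 was compared between primary rat Schwann cells collected 30 min after cAMP washout and untreated control cells, in 3 ChIP-seq libraries per group. Every merged peak of the deposited count table was taken, which gave 16364 peaks in 6 of the 18 libraries of the series; the other libraries were 3 collected 3.5 h after washout and 9 genomic inputs. The treated cells received the membrane-permeable cAMP analog 8-CPT-cAMP for 30 min, were washed and were collected 30 min later. The dose was 50 μM in the treatment protocol and in the description of the ChIP-seq experiment, whereas the treatment label of the samples has 100 μM. The cells came from adult rat sciatic nerve and were first expanded with neuregulin and forskolin, an activator of adenylyl cyclase. They were grown for the experiments without either, and both groups share this history. Nothing in the labels says that replicates were separate cultures or animals. The p-values can therefore rest only on the spread between these libraries, which may be technical. No gene annotation of the peaks' build was used, so the cell type could not be checked against its markers in these counts.

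H3K4me3 is trimethylation of lysine 4 on histone H3. It marks nucleosomes around the start sites of active and poised promoters, where it is written by the SET1 and MLL methyltransferase complexes and removed by demethylases such as the KDM5 family. Wide or tall H3K4me3 domains are typical of strongly transcribed genes and genes of cell identity, whereas small low peaks often lie at weak promoters or enhancers. cAMP is the second messenger that activates protein kinase A, and in Schwann cells, the glia that wrap peripheral axons, it promotes differentiation and responses to neuregulin.

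Of the 16361 peaks that passed edgeR's filter on low counts, 1068 fell and 976 rose 30 min after washout, which is 6.53% and 5.97% of the peaks tested and 12.5% together (quasi-likelihood test of edgeR with reads in peaks and TMM as library size, at a threshold of 0.05 on the p-value adjusted by Benjamini-Hochberg). At an unadjusted p-value under 0.05 the counts were 2307 and 2514. The falls were small and the rises larger. The median log2 fold change, 30 min minus control, was -0.10 among the peaks that fell and 0.26 among those that rose, and 83 rises but 6 falls were larger than 1.5-fold. In 1992 of the 2044 changed peaks all 3 libraries of one group lay on one side of the other group, whereas the libraries were separated downward in 19.8% and upward in 17.1% of all tested peaks. In the input libraries edgeR called 0 of 1680 peaks, or 0 of 16364 without the filter, and 1 of the 1680 had an unadjusted p-value under the threshold. Those libraries, however, had few and uneven reads in peaks, from 27344 in control replicate 2 to 835518 in 30 min replicate 3. Their biological coefficient of variation was 31.6%, against 0.988% in the ChIP libraries.

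The balance of falls and rises depended on the library size. With all counted reads in place of the reads in peaks, 4893 peaks fell and 549 rose, or 29.9% and 3.36%, and the median log2 fold change over all peaks moved by -0.08. All 1068 falls remained falls on that scale, 490 of the 976 rises remained rises and 0 of them became falls. The p-values of that fit did not always follow the spread at a peak, as the peak of Eln below shows. The shift came from the share of counted reads that lay in peaks, which was 83.0%, 79.7% and 82.3% in control replicates 1 to 3 and 75.1%, 79.1% and 75.4% at 30 min. The difference of the means, 30 min minus control, was -5.12 percentage points and the groups did not overlap (two-sided exact permutation test over 20 splits, p = 0.1, the smallest possible with 3 against 3). With loess offsets, which remove each library's trend of counts with peak abundance, 252 peaks fell (1.54%) and 513 rose (3.14%), of which 220 and 404 were among the first calls. With all 9 ChIP libraries in one fit, 46 fell (0.281%) and 87 rose (0.532%).

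Depth moved with the condition. Reads in peaks were 13762905 to 14484777 in control and 15350058 to 17160987 at 30 min, so every 30 min library was deeper than every control library. When the 6 libraries were ordered by all counted reads, the share in peaks fell at every step, from 83.0% in the shallowest control library to 75.1% in the deepest 30 min library. Because the authors removed duplicates, at most 1 read could start at each base of each strand. In the tallest quartile of peaks by reads per kb, the median peak had filled 34.8%, 36.4% and 36.4% of its possible read starts in control replicates 1 to 3 and 42.1%, 38.3% and 39.3% at 30 min. In the lowest quartile it had filled 5.09% to 5.66% in control and 6.28% to 7.41% at 30 min. Depth and washout cannot be told apart in these libraries, and the part of duplicate removal in the changes was not tested.

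**Figure D1:**
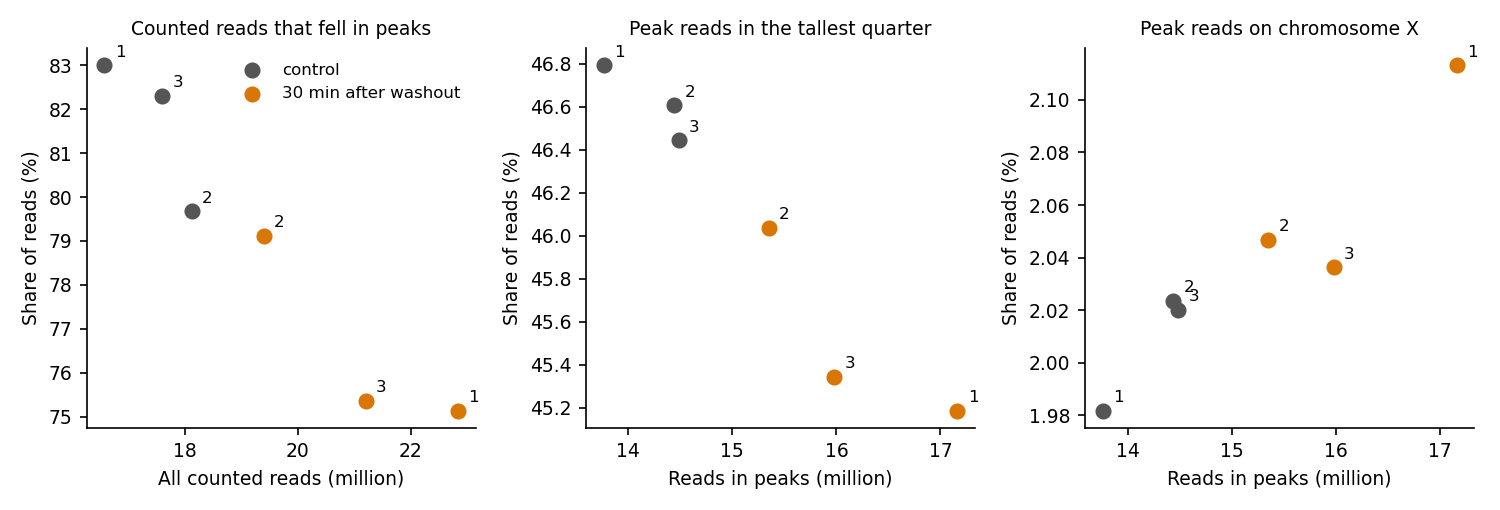
Share of all counted reads in peaks (left), share of peak reads in the tallest quartile of peaks (middle) and share of peak reads on chromosome X (right), in percent, against the reads in each of the 6 libraries; numbers are replicates and the axes do not start at 0. The share in peaks ran from 83.0% down to 75.1% and that of the tallest quartile from 46.8% down to 45.2% in the order of depth, with the 3 control libraries shallower than the 3 libraries at 30 min.

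Direction followed peak height. In the lowest quartile of peaks by reads per kb 9 peaks fell and 451 rose, and in the tallest quartile 821 fell and 38 rose. The median log2 fold change was 0.16, 0.05, -0.01 and -0.05 from the lowest to the tallest quartile, against 0.01 over all peaks. The tallest quartile held 46.8%, 46.6% and 46.4% of the peak reads in control replicates 1 to 3 and 45.2%, 46.0% and 45.3% at 30 min. The groups did not overlap (exact permutation test, p = 0.1), and the 6 values again fell at every step of the order by reads in peaks. The loess offsets, which take out such a trend, left medians of 0.03, 0.02, 0.00 and -0.02.

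**Figure D2:**
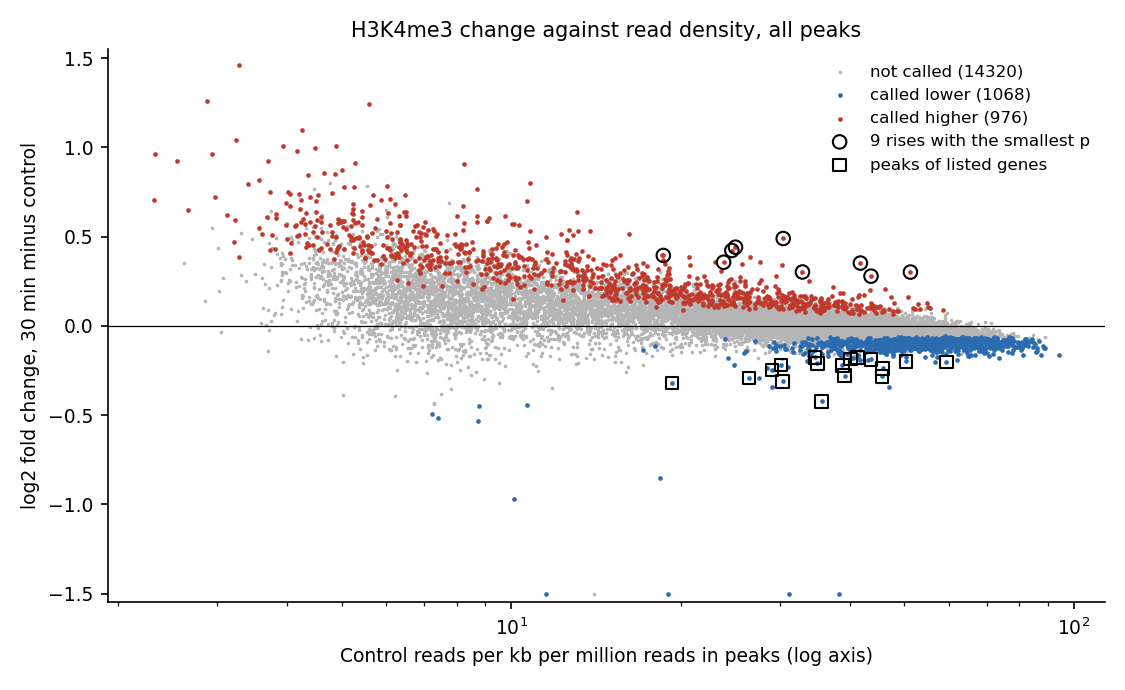
Log2 fold change (30 min minus control) of each of the 16361 tested peaks against its control read density in reads per kb scaled to library size, on a log axis. Grey, blue and red points are peaks not called, called lower and called higher, and 5 peaks beyond 1.5 are drawn at that limit. Circles mark the 9 rises with the smallest p and squares the peaks of listed genes. The 976 rises lie mostly at low density and the 1068 falls at high density, while the circled rises lie at 0.28 to 0.49, 4 of them in the second-lowest quartile of height and the others in the taller ones.

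Medians by width spanned a smaller range than those by height. Narrow peaks, under 700 bp, had 10 falls and 103 rises among 1585, or 0.63% and 6.50%, and their median log2 fold change was 0.13. Mid-width peaks, from 700 to under 2500 bp, had 702 falls and 674 rises among 12080, which is close to the balance over all peaks. Wide peaks, from 2500 to under 4000 bp, had 269 falls and 149 rises among 2156. Broad peaks, of 4000 bp or more, had 87 falls and 50 rises among 543, or 16.0% and 9.21%. So both directions were called most often in broad peaks, while their median change was -0.02, as in wide peaks. The median read count per library was 75.7 in narrow, 726 in mid-width, 1794 in wide and 2884 in broad peaks, and a peak with more reads can pass the test with a smaller change. Among called peaks the median rise was 0.57 in narrow and 0.14 in broad peaks, and the median fall -0.39 and -0.09, on the log2 scale.

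In percentage points, the share of peak reads changed little by width. Narrow peaks held 1.084%, 1.102% and 1.121% of the peak reads in control replicates 1 to 3 and 1.183%, 1.148% and 1.201% at 30 min. Every 30 min library was thus higher, a relative change of 6.80% (exact permutation test, p = 0.1, the smallest possible). With all counted reads as denominator this gain was absent: the means were 0.900% in control and 0.901% at 30 min, and the groups overlapped. Wide peaks held 26.05%, 25.99% and 25.89% in control and 25.83%, 25.87% and 25.73% at 30 min, a relative change of -0.626% with no overlap (exact permutation test, p = 0.1). Mid-width and broad peaks overlapped between the groups (exact permutation test, p = 0.3 and p = 0.6). In the input libraries, which have no immunoprecipitation, narrow peaks held 2.82% to 2.91% of the peak reads in control and 2.79% to 2.86% at 30 min, with overlap.

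Within a quartile of height the median log2 fold changes of the width classes ran from 0.14 to 0.17 in the lowest quartile, 0.01 to 0.05 in the next, -0.05 to -0.01 in the third and -0.10 to -0.04 in the tallest. In the tallest quartile the median log2 fold change was -0.05 in mid-width and in wide peaks and -0.04 in broad peaks, while 17.6%, 27.6% and 31.5% of them fell. In the second-lowest quartile, 15.3% of broad, 14.3% of wide, 8.11% of mid-width and 3.08% of narrow peaks rose, with median reads per library of 1981, 1183, 522 and 172. Narrow peaks had the lowest median of the 4 classes in the upper quartiles, with -0.05 among 70 peaks in the third, of which 0 were called, and -0.10 among 32 in the tallest, of which 4 fell and 0 rose. Broad peaks had the lowest median in the second-lowest quartile, 0.01 against 0.05 in mid-width and in narrow peaks. With loess offsets the order by width turned: 16.6% of broad and 7.75% of wide peaks then rose, against 3.32% and 1.30% that fell, and the narrow peaks had a median of -0.04. With all counted reads 45.5% of broad and 46.4% of wide peaks fell.

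**Figure D3:**
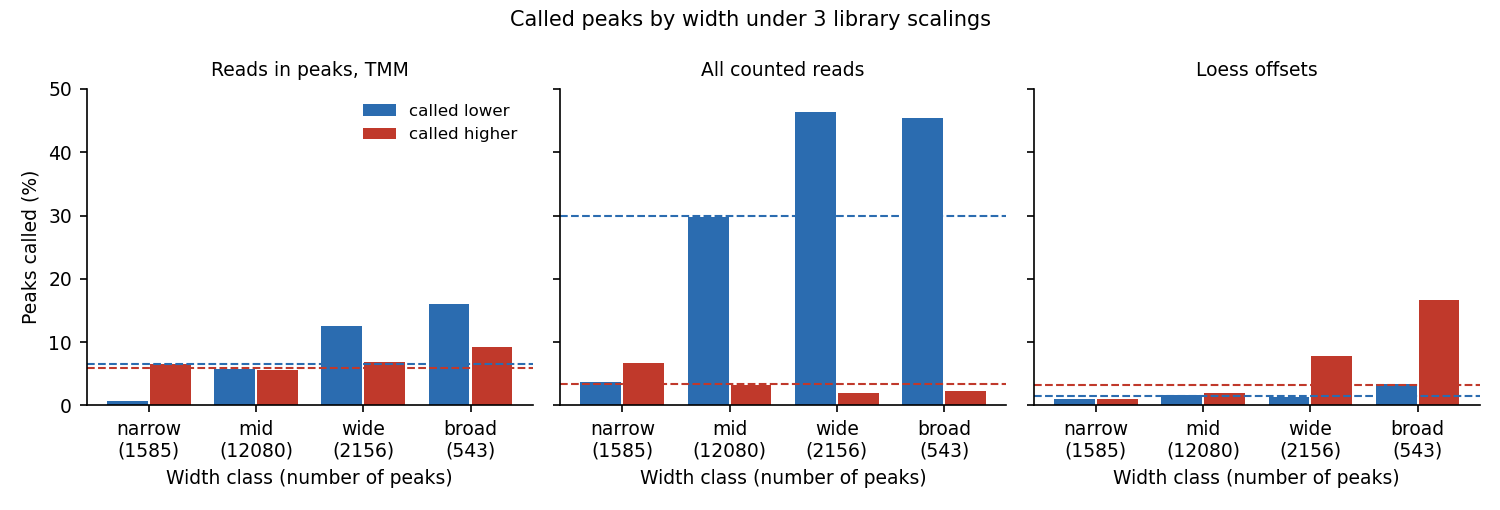
Percentage of the peaks in each width class called lower (blue) or higher (red) at 30 min, with reads in peaks (left), all counted reads (middle) or loess offsets (right) as scaling; dashed lines give the percentage over all peaks and the number of peaks stands under each class. Falls lead in wide and broad peaks with reads in peaks and with all counted reads, reaching 46.4% of wide peaks in the middle panel, whereas rises lead there with loess offsets, at 16.6% of broad peaks.

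With reads in peaks and TMM as library size, the peaks with the smallest p-values were rises. The 9 smallest of that fit belonged to rises, 8 of them in wide or broad peaks and 0 in the lowest quartile of height. This set was chosen after its values were seen. In the tallest quartile lay 3 of them and in the next 2, where falls outnumbered rises, and 4 lay in the second-lowest, where 359 peaks rose and 40 fell. Their log2 fold changes were 0.28 to 0.49. Positions are in Rnor_6.0, as deposited. The first, Peak_10142 (chromosome 18, 27655513 to 27660421, 4909 bp), had 253, 252 and 253 CPM (counts scaled to the reads in peaks with TMM) in control replicates 1 to 3 and 309, 311 and 314 at 30 min. Its groups stood far apart against their spread, with a log2 fold change of 0.30 (SE 0.02, adjusted p = 4.45e-08 from edgeR). The control libraries differed by less than Poisson noise, with a chi-square per degree of freedom of 0.664 to 0.917 between pairs. Their spread may therefore understate that between separate cultures, here and at the other peaks. Peak_13820 (chromosome 7, 142910980 to 142920047), the widest of the 9 at 9068 bp, had 220.0, 215.4 and 215.8 CPM in control and 274.8, 273.3 and 285.6 at 30 min. Peak_8740 (chromosome 1, 80218868 to 80222516) had 109, 109 and 117 CPM in control and 163, 153 and 153 at 30 min, the largest change of the 9 (log2 fold change 0.49, SE 0.03, adjusted p = 4.45e-08 from edgeR). No library of one group reached into the other at any of these peaks.

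Of the remaining rises in this set, Peak_1635 (chromosome 5, 72285164 to 72288178) had 125.9, 128.9 and 124.2 CPM in control and 164.0, 159.0 and 160.5 at 30 min. Peak_149 (chromosome 15, 51753802 to 51760476) had 291.9, 289.5 and 294.9 CPM in control and 353.8, 357.6 and 351.7 at 30 min, and lay in the tallest quartile, where 0.93% of peaks rose. Peak_11223 (chromosome 20, 22456313 to 22461342) had 161.3, 167.7 and 169.9 CPM in control and 206.6, 204.8 and 203.7 at 30 min. These are broad or wide domains that gained about as much in every replicate. Peak_5584 (chromosome 3, 165372252 to 165375408) had 60.1, 59.5 and 57.5 CPM in control and 80.5, 75.2 and 76.8 at 30 min. Peak_4961 (chromosome 2, 251534804 to 251537242), the 1 mid-width peak of the set, had 58.9, 61.2 and 61.1 CPM in control and 85.3, 78.3 and 78.9 at 30 min. Peak_12525 (chromosome 5, 74941614 to 74945550) had 102, 98.9 and 95.9 CPM in control and 144, 131 and 127 at 30 min. All 9 also rose with all counted reads and with loess offsets (edgeR, adjusted p from 8.37e-16 to 0.000343 on the former scale). With all counted reads, however, falls came ahead of some of these rises. The adjusted p from edgeR was then 9.81e-13 at Peak_8008, a fall, and 6.46e-05 at Peak_10142. In the fit of all 9 ChIP libraries 8 of the 9 rises passed, and Peak_12525 did not (adjusted p = 0.0716).

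Among changed peaks with separated groups, the largest changes were at low peaks. The largest fall was Peak_1958 (chromosome 6, 103376188 to 103376909), with 13.7, 13.6 and 12.6 CPM in control and 8.24, 6.96 and 6.85 at 30 min (log2 fold change -0.85, SE 0.10, adjusted p = 0.000201 from edgeR). It stayed past the threshold in all 18 alternative settings. The next falls, Peak_3484, Peak_1498, Peak_8538, Peak_2719 and Peak_16322, had log2 fold changes of -0.53 to -0.44, and Peak_1498 kept its call in 5 of the 18 settings. The largest rises were Peak_11282 (chromosome 20, 45481451 to 45481798), Peak_12742 (chromosome 1, 24188439 to 24189646) and Peak_7013 (chromosome 7, 137141903 to 137142246). Peak_11282, 348 bp wide, held 11, 21 and 17 reads in control replicates 1 to 3 and 59, 43 and 53 at 30 min (log2 fold change 1.46, SE 0.21, adjusted p = 0.000875 from edgeR). Peak_12742 held 37, 49 and 63 reads in control and 159, 127 and 123 at 30 min, and it lay 595 bp from the nearest other peak. Peak_10976, Peak_11227 and Peak_15185 followed, with log2 fold changes of 1.01 to 1.099. All 12 peaks belonged to the lowest quartile of height.

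By width, the leading narrow fall was Peak_4983 (chromosome 1, 2073389 to 2073981), with 44.6, 43.1 and 44.0 CPM in control and 36.9, 40.7 and 38.9 at 30 min (edgeR adjusted p = 0.0107). The leading wide fall was Peak_12775 (chromosome 1, 198456713 to 198460020), with 93.5, 95.5 and 94.9 CPM in control and 79.8, 77.8 and 83.5 at 30 min (log2 fold change -0.24, SE 0.03, edgeR adjusted p = 0.000127). The leading broad fall, Peak_7402 (chromosome 8, 130397245 to 130401654), went from 191.3, 193.1 and 190.4 CPM to 171.3, 177.0 and 175.4. Its log2 fold change was -0.14, against 0.30 for Peak_10142, the leading broad rise.

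All 4 falls larger than 2-fold had overlapping groups, and 3 lay on unplaced scaffolds. Peak_2704, one of these, held 357, 1449 and 69 reads in control replicates 1 to 3 and 217, 71 and 150 at 30 min. Control replicate 2 was high and control replicate 3 low at all 3 scaffold peaks. The other, Peak_8639 on chromosome 12, held 464, 408 and 7 reads in control and 11, 11 and 6 at 30 min, so that control replicate 3 resembled the 30 min libraries. No rise larger than 2-fold, of which there were 7, was on an unplaced scaffold.

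Changed peaks lay on every numbered chromosome and on X. The share of peaks called in either direction was highest on chromosome 17 (15.9%), then 15 (15.3%) and 18 (14.8%), and lowest on X (8.21%), against 12.5% over all peaks. Chromosome 15 had the highest share of rises, 8.97%, and chromosome 18 the highest share of falls, 8.54%. Chromosome 17 had 45 falls and 46 rises among 573 peaks. Its leading fall was Peak_382 (43734080 to 43735704), with 63.6, 63.6 and 62.6 CPM in control and 54.4, 53.4 and 54.9 at 30 min (log2 fold change -0.22, SE 0.03, edgeR adjusted p = 0.000313). Its leading rise was Peak_9878 (21737219 to 21740094), with 38.2, 37.6 and 34.9 CPM in control and 53.9, 45.5 and 44.2 at 30 min.

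Chromosome X had few falls, 6 among 475 peaks or 1.26%, beside 33 rises or 6.95%. Its median log2 fold change was 0.05, against 0.01 over the numbered chromosomes. X held 1.98%, 2.02% and 2.02% of the peak reads in control replicates 1 to 3 and 2.11%, 2.05% and 2.04% at 30 min, a relative change of 2.83% without overlap (exact permutation test, p = 0.1). The numbered chromosomes changed by between -0.671% and 0.738%. In all, 3 of the 21 chromosomes were above control in every library, 5 below and 13 overlapped. With all counted reads as denominator 19 of the 21 were below, X overlapped, and the mean on X was 0.06 percentage points lower at 30 min. X had fewer tall peaks than the numbered chromosomes, with 39 of its 475 in the tallest quartile. Within each quartile of height the X share of reads overlapped between the groups. The share of tallest-quartile peaks that fell was still 7.69% on X, 3 of 39 peaks, against 20.1% on the numbered chromosomes, at median reads per library of 1538 and 1534. This difference was not tested. With loess offsets 1.26% of the X peaks fell and 4.84% rose, against 1.53% and 3.09% on the numbered chromosomes. In the tallest quartile the shares that fell were then 2.56% on X and 3.29% on the numbered chromosomes.

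**Figure D4:**
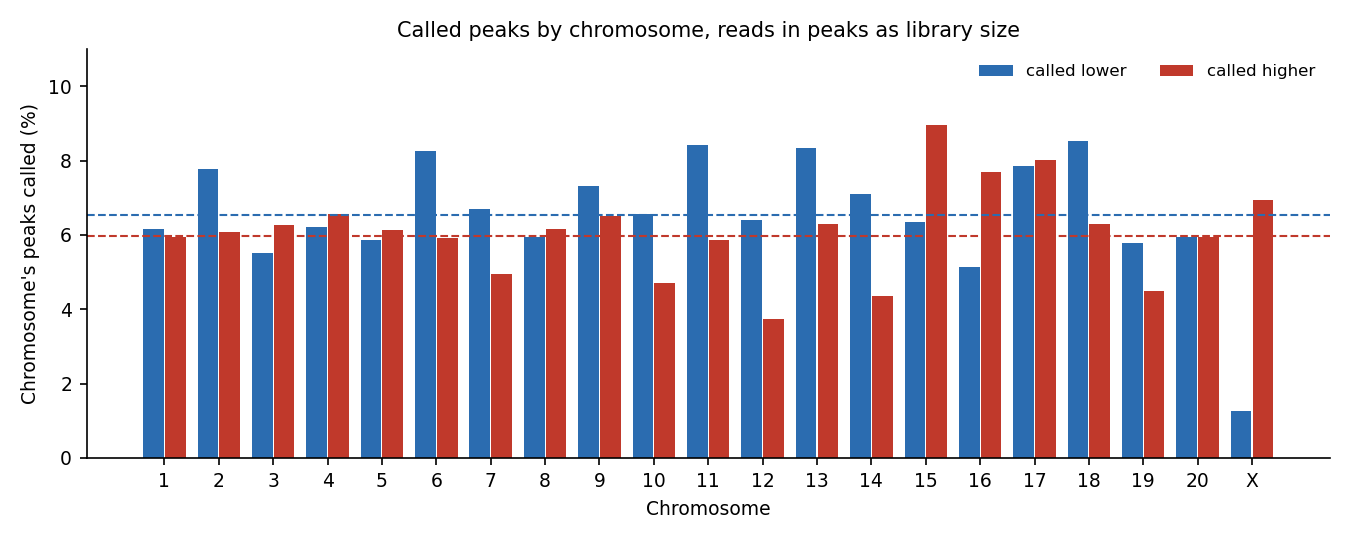
Percentage of each chromosome's peaks called lower (blue) or higher (red) at 30 min, with reads in peaks and TMM as library size; dashed lines give 6.53% and 5.97%, the percentages over all tested peaks. On this scale X has the lowest share called lower, 1.26%, and chromosome 15 has the highest share called higher (8.97%, beside 6.35% called lower). With loess offsets, not drawn, 1.26% of X peaks and 1.53% of those on numbered chromosomes were called lower.

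Peaks close to another peak were called a little more often. Of the 1902 peaks whose nearest neighbour lay under 1 kb away, 160 fell (8.41%) and 182 rose (9.57%). The shares were 4.91% and 6.35% at 1 to 10 kb, 6.71% and 4.996% at 10 to 100 kb, and 6.64% and 5.996% from 100 kb. Peaks under 1 kb apart held 10.06%, 10.07% and 10.03% of the peak reads in control replicates 1 to 3 and 10.09%, 10.03% and 10.03% at 30 min (exact permutation test, p = 1). The peaks with a neighbour at 10 to 100 kb held 54.7%, 54.6% and 54.6% in control and 54.5%, 54.6% and 54.4% at 30 min, lower in every library (exact permutation test, p = 0.1).

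Adjacent peaks changed alike only weakly. Over the 989 pairs under 1 kb apart, the log2 fold changes of the members had a Pearson r of 0.10 and a Spearman rho of 0.10, and 0.17 and 0.18 with loess offsets. At 1 to 10 kb Pearson's r was 0.12, at 10 to 100 kb 0.05 and beyond 100 kb 0.02. These are descriptions over pairs that share the same 6 libraries and their depths. In 42 of the pairs under 1 kb both members were called, in the same direction in 28 (5 falls and 23 rises) and in opposite directions in 14. In 13 of those 14 the lower member rose and the taller member fell. At 1 to 10 kb 31 of 41 such pairs moved together, and at 10 to 100 kb 66 of 131.

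Of the pairs that moved together, the leading falls were Peak_6235 and Peak_6236 (chromosome 5, 151210834 to 151211724 and 151212044 to 151214078). Peak_6235 had 79.7, 78.4 and 76.4 CPM in control and 68.4, 71.4 and 69.6 at 30 min, and Peak_6236 had 88.9, 89.5 and 90.9 in control and 80.5, 80.2 and 84.9 at 30 min. Both members were lower in every 30 min library, by log2 fold changes of -0.16 and -0.13. The leading rises, Peak_10560 and Peak_4624 (chromosome 2, 5560275 to 5561257 and 5562076 to 5564323), had log2 fold changes of 0.22 each (SE 0.04 each), and Peak_10560 lost its call with all counted reads (edgeR adjusted p = 0.0632, range over the alternatives 0.00150 to 0.456).

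A pair that split lay close by on chromosome 2. Peak_4625 (5577967 to 5580828) had 276.8, 267.7 and 268.3 CPM in control and 233.5, 249.6 and 243.5 at 30 min, whereas Peak_4626, 108 bp further on (5580937 to 5581980), had 8.27, 9.39 and 9.66 in control and 16.5, 15.3 and 14.7 at 30 min. The tall peak fell and the low one beside it rose, with log2 fold changes of -0.16 and 0.77. The other leading split, Peak_2562 and Peak_7458 on chromosome 9 (16736443 to 16738534 and 16738830 to 16741632), was one of peaks of more similar size. Peak_2562 had 123.5, 119.5 and 119.8 CPM in control and 107.2, 113.0 and 109.3 at 30 min, and Peak_7458 had 73.9, 70.6 and 70.7 in control and 88.8, 87.8 and 83.7 at 30 min. All 4 members kept their direction and call with all counted reads and with loess offsets.

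Called peaks followed each other in 49 uninterrupted runs of 3 or more, 38 of 3 peaks, 10 of 4 and 1 of 5. With 12.5% of all peaks called, and 15.9% on chromosome 17, some runs arise without clustering. Their number was not estimated. All members rose in 11 and all fell in 6. Of the 4 runs of 4 peaks that moved one way, 3 lay on chromosome 17. The peaks from 43922972 to 43939455 rose by 0.24 to 0.92 on the log2 scale, and those from 45635043 to 45645675 by 0.37 to 0.62. Every member of both runs lay in the lowest quartile of height, and Peak_9943 rose from 1.24, 2.02 and 1.93 CPM in control to 3.19, 2.80 and 3.92 at 30 min. The peaks from 49675326 to 49991921 had log2 fold changes of -0.16 to -0.08, and the run on chromosome 2 from 22427252 to 23097797 had -0.14 to -0.09. The members of those runs lay in the tallest quartile, except Peak_4637 in the next lower one. Peak_9976 had the most reads of them, with 245, 242 and 237 CPM in control and 213, 229 and 222 at 30 min. Every member kept its call with all counted reads, but each of the 4 runs lost members with loess offsets. In the first run Peak_9942, Peak_9944 and Peak_9945 lost theirs (edgeR adjusted p = 0.0540, 0.273 and 0.0553), in the second Peak_9969 (0.264), in the third Peak_4221 (0.312) and on chromosome 2 Peak_4637 and Peak_4638 (0.0709 and 0.258).

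Gene names could be given to 18 peaks. They were matched to the 20 genes that the study listed as losing H3K4me3 most at 30 min. The match used the mean read densities in control and at 30 min together, so each peak was picked partly by its fall. Of the 20 symbols 18 had a RefSeq record, all on the chromosome of their peak. The match of Trim68 is the least sure, as the next closest peak lay 2.27 times as far from the listed densities. The study chose this list on the same libraries, so its direction is no independent evidence. All 18 peaks were called lower with reads in peaks, with all counted reads and with loess offsets, and 10 in the fit of all 9 ChIP libraries. Their median log2 fold change was -0.23, against -0.10 over all falls, and 17 were of mid width and 1 wide. The list names an unnamed transcript at the peak of Cd99, which adds no further value.

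As examples, RefSeq promoter sequences of 4 listed genes are given, from 250 bases before to 50 after the start site. They are in GRCr8 coordinates, a different build from that of the peaks. Whether the peaks cover these windows was not checked. Capitals mark TGACG or its complement CGTCA, the core of the site bound by the cAMP-responsive factor CREB.

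Zfp692 (chr10:42988696-42988995, plus strand): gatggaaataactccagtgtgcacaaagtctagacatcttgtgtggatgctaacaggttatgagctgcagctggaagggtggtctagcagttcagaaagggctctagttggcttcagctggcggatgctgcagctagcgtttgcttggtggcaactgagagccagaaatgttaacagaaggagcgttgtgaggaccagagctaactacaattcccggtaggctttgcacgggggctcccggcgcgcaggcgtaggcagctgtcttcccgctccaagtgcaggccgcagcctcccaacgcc
Ptges3 (chr7:1075059-1075358, plus strand): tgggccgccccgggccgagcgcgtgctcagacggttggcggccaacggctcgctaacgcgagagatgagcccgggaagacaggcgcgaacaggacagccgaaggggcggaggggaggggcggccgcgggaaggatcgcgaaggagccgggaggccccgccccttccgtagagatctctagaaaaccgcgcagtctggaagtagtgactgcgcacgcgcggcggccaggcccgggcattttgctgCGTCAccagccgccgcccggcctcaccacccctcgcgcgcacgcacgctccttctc
Cd99 (chr20:56005039-56005338, minus strand): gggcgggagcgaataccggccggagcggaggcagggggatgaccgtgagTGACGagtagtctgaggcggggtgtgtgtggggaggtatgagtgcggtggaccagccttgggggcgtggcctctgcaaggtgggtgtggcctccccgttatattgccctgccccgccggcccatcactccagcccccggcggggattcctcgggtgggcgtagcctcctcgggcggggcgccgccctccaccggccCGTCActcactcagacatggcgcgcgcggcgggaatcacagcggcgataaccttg
Fpgt (chr2:246778799-246779098, minus strand): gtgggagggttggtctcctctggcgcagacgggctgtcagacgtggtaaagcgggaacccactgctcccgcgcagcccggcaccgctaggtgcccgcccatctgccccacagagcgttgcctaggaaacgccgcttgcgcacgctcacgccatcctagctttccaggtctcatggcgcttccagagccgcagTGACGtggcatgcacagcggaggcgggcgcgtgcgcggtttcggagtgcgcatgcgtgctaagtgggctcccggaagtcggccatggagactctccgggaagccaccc

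TGACG was searched on both strands of 15 promoter windows of 14 genes. Samd1 had a pair of overlapping windows and those of Fpgt and Lrriq3 overlap, so that 13 separate regions remained. TGACG was present in 3 of the 13 regions, or 23.1%, and in 4 of the 15 windows, against 21.2% of 33469 rat promoter windows of 300 bases, overlapping ones included. The full palindrome TGACGTCA, which contains TGACG, was in 0 of the 15 and in 1.83% of all. No match says only that these letters are not in the window. The match in Fpgt is shared with Lrriq3, whose start lies on the other strand of the same region and whose listed value belongs to the same peak.

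The gene with the smallest p was Zfp692, which encodes a zinc-finger protein. Its peak, Peak_8008 (chromosome 10, 43744317 to 43746025), had 78.3, 78.4 and 78.1 CPM in control and 63.1, 65.3 and 64.8 at 30 min (log2 fold change -0.28, SE 0.03, adjusted p = 7.76e-06 from edgeR). This was the first fall in the order of p-values and it was kept in all 18 settings. Ptges3, which encodes the HSP90 co-chaperone p23, had the tallest of these peaks, Peak_6649, with 140.4, 142.5 and 140.7 CPM in control and 119.6, 125.1 and 123.6 at 30 min (log2 fold change -0.20). Cd99, for a cell-surface glycoprotein, had 91.4, 91.3 and 90.0 CPM in control and 77.5, 81.7 and 78.6 at 30 min. Stk11ip, whose product binds the kinase LKB1, had 51.8, 53.9 and 52.8 CPM in control and 44.74, 42.03 and 43.71 at 30 min. Each of these 4 peaks had every 30 min library below every control library.

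The listed genes for mitochondrial proteins were Pdss1, for an enzyme of coenzyme Q synthesis, and Slc25a23, for a carrier of ATP-Mg and phosphate. Pdss1 had 30.2, 30.6 and 30.1 CPM in control and 26.4, 24.4 and 22.3 at 30 min. Slc25a23 had 29.3, 29.3 and 29.7 CPM in control and 24.4, 24.1 and 27.4 at 30 min, where replicate 3 lay nearest to control. Of the histone genes, Hist1h3b, for histone H3, had 33.3, 33.5 and 33.1 CPM in control and 28.7, 28.0 and 28.0 at 30 min, and Hist1h1d, for a linker histone, matched Peak_382 of chromosome 17. The symbol Hist1h1d corresponds to more than one RefSeq record, and near-identical histone genes can share reads.

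Among regulators, the peak of Samd1, for a protein that binds unmethylated CpG islands, had 19.97, 21.97 and 19.60 CPM in control and 16.0, 16.3 and 17.1 at 30 min. It was the first of a run of 3 falls on chromosome 19, from 25118477 to 25127288. The peaks of Tshz3 and Glis2, for zinc-finger transcription factors, had log2 fold changes of -0.21 and -0.19. Of the other listed symbols, LOC684762, which had no RefSeq match, had -0.42 at a peak on chromosome 17 (43806917 to 43807660). Gmcl1 had -0.29, Trim68, for a RING-type ubiquitin ligase, -0.18, and Fpgt, for an enzyme of fucose salvage, -0.18. Tmem164 was the 1 listed gene on X, with 42.4, 44.3 and 44.4 CPM in control and 36.8, 35.0 and 38.5 at 30 min, and is thus among the 6 falls of that chromosome. Ctgf, for a secreted matricellular protein, was the 1 wide peak and its control libraries spread more, with 155, 158 and 137 CPM against 136, 132 and 127 at 30 min.

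Eln, for elastin, carried the largest change of the list, a log2 fold change of -5.16, and was also its exception. Its peak is Peak_8639, described above, whose control replicate 3 had 0.483 CPM, inside the 30 min range of 0.374 to 0.716. The groups therefore overlapped at 1 of the 18 peaks and were separated at 17. At Eln the adjusted p from edgeR was nonetheless 2.77e-223 with all counted reads, against 0.00371 with reads in peaks. A small p-value with all counted reads thus need not mean that the groups are separated. With single libraries left out 14 to 17 of the 18 kept their call.

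**Figure D5:**
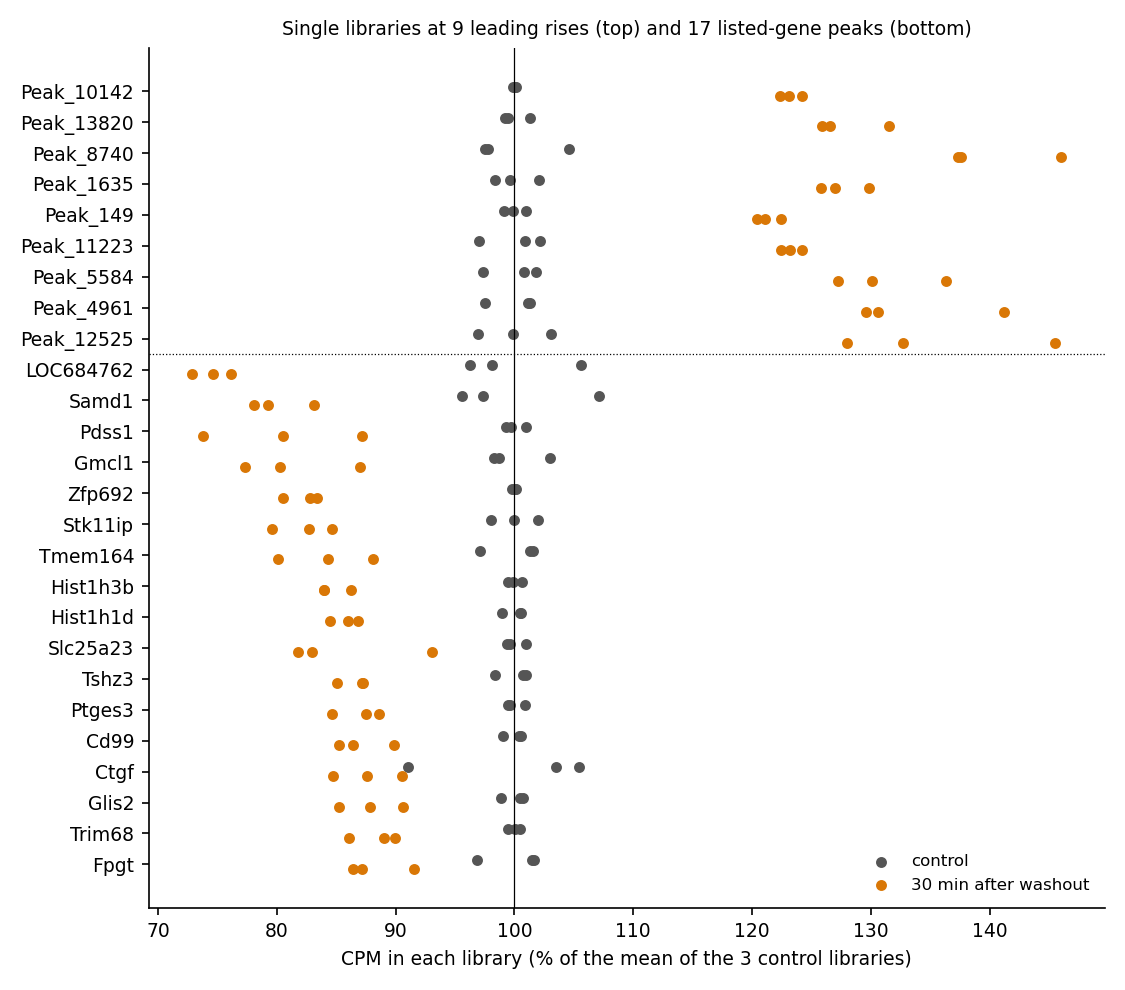
CPM of each library as a percentage of the mean of the 3 control libraries (grey, control; orange, 30 min) at the 9 rises with the smallest p (upper rows) and at 17 peaks of listed genes (lower rows, Eln left out); the axis does not start at 0. The orange points lie right of all grey points at every one of the 9 rises and left of them at every one of the 17 gene peaks, closest at Ctgf.

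Fewer calls were kept with each library left out and under each of the scalings named here. With reads in peaks, in the 6 fits that each left out 1 library, with all counted reads and with loess offsets, 131 peaks fell and 130 rose every time. Their median log2 fold changes were -0.14 and 0.38. These near-equal counts do not measure a net direction. Reads in peaks with TMM and loess offsets both centre the changes near 0, and all counted reads kept all 1068 falls but 490 of the 976 rises. The fit of all 9 ChIP libraries and DESeq2 were not among the fits required. Of these falls 0 were narrow, 89 mid-width, 24 wide and 18 broad, and of the rises 12, 85, 23 and 10. On X 2 of the 6 falls and 8 of the 33 rises were among them. The 9 leading rises and the peaks of Zfp692, Ptges3, Stk11ip and Cd99 belonged to them, and so did that of Eln, whose groups overlap.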

How the data were processed

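Per the study's methods, the authors trimmed single reads of 75 bases, aligned them with BWA to Rnor_6.0 and discarded reads that mapped to several places or were duplicates. Narrow peaks came from MACS2, passed an Irreproducible Discovery Rate filter and were merged over the treatments, and HTSeq-count counted the reads in each. The deposited counts are raw, without normalization, and 0 values differed between the combined table and the single files. HTSeq-count's class lines, 17.0% to 24.9% of the counted reads of these ChIP libraries, stayed out of tests. They entered the library size only where all counted reads are named. Widths equal end minus start plus 1, and 3 peaks start at 0, so positions are as deposited.

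Changes were tested with edgeR 4.0.16 (limma 3.58.1, R 4.3.3) on the 3 control and 3 30 min libraries: filterByExpr, TMM, glmQLFit and glmQLFTest, Benjamini-Hochberg adjusted p-value under 0.05 over all tested peaks. TMM factors were 0.993 to 1.00. On simulated counts of 16364 peaks in this comparison, 78, 173 and 184 of 200 peaks changed by 0.15, 0.3 and 0.5 on the log2 scale were recovered, with 1, 8 and 10 false calls. Those counts had a common dispersion and no trend of change with peak height. The libraries themselves show such a trend, so these false calls do not measure the reliability of the calls made here. Shares per library were compared by two-sided exact permutation tests, for which p cannot be under 0.1. Height is the summed count of the 6 libraries per bp of peak, in quartiles. Possible read starts are 2 strands times the width plus the read length minus 1. Replicates were checked by a chi-square per degree of freedom between libraries, 0.664 to 0.917 for control pairs and 1.01 to 1.69 at 30 min. All 3 control pairs differed by less than Poisson noise, their reads outside peaks differed, and they were kept as separate libraries.

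Named peaks are the 6 largest falls and rises with separated groups, the fall and rise with the smallest p in each width class and on the chromosome with the most calls, and the 2 leading pairs under 1 kb apart of each kind. The members, lists and rules were chosen with earlier results of these data known. Genes were matched to peaks by mean read density against the study's gene list, with differences of at most 0.441%, and promoters and symbols come from RefSeq (GRCr8). Alternatives were all 9 ChIP libraries, no TMM, all counted reads, loess offsets (span 0.3), DESeq2 1.42.0, an adjusted p under 0.01, a test against a fold of 1.1, no filter, at least 10 counts per library, the replicate number as a block and each library left out. Added after seeing the data were loess offsets with the block, all 9 libraries with all counted reads, and the calls kept in all settings of scaling and left-out library. Python 3.11.15, numpy 2.4.6, pandas 2.3.3, scipy 1.17.1 and matplotlib 3.10.9 were used.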

Additional observations from a re-analysis of the deposited data

How the results depend on the processing

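The counts of changed peaks moved by more than 1.5 times under most settings. Against 1068 falls and 976 rises, the counts were 46 and 87 with all 9 ChIP libraries, 33 and 35 with all 9 and all counted reads (a setting added after seeing the data), 4893 and 549 with all counted reads, 252 and 513 with loess offsets, 123 and 184 with DESeq2, 264 and 236 at an adjusted p under 0.01, and 6 and 68 against a fold of 1.1. Without TMM 681 fell and 1006 rose. With single libraries left out falls ranged from 206 to 1240 and rises from 273 to 1071. The lowest, 206 and 273, came without control replicate 1, and falls also moved without control replicate 2 (254), 30 min replicate 1 (302) and 30 min replicate 3 (682), rises without control replicate 2 (282) and 30 min replicate 1 (411). Without the filter 1069 fell and 972 rose. The cause of these moves was not tested.

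Whether replicate numbers pair the libraries could not be settled. The correlation of deviations between same-numbered libraries was 0.12, -0.02 and 0.22, and between differently numbered ones it ranged from -0.22 to 0.14. The highest was that of the replicates numbered 3, whereas control replicate 1 correlated most with 30 min replicate 2 (0.14). With the replicate block 1230 peaks fell and 1594 rose, and with loess offsets and the block, added after seeing the data, 359 and 793.

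With all counted reads as denominator the differences in share, 30 min minus control, reversed to -3.08 percentage points in mid-width peaks, -0.981 at 1 to 10 kb, -0.706 from 100 kb and -0.0594 on X, and 19 chromosomes instead of 8 had groups without overlap. That number was 13 without control replicate 3. The difference in narrow peaks shrank from 0.075 to 0.000575 percentage points with all counted reads as denominator. The difference under 1 kb, -0.00104 percentage points, reversed to 0.00474 with distances between centres, and ranged from -0.0199 to 0.00946 with single libraries left out. Of the 29 named peaks 0 changed direction. Between 13 and 29 kept their call, the fewest against a fold of 1.1 and the most with the block.

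Small changes can go uncalled in these libraries. In counts simulated at their depths, without a trend of change with peak height, 173 of 200 peaks changed by 0.3 on the log2 scale were recovered. Of 200 changed by 0.15, 78 were. Other depths were not simulated.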
